A study of Mus musculus with 2 samples.

Results

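Tip cells are the leading endothelial cells of a growing vessel sprout, and here they were the cells that carry the Tip label in the cluster table published with the study. The label was held by 170 of 1560 labelled P6 cells, which is 10.9% (95% exact binomial interval 9.39 to 12.6), and by 46 of 438 labelled P15 cells, which is 10.5% (7.79 to 13.8). Together that made 216 Tip cells among 1998 labelled cells, out of 1984 cell barcodes in the P6 library and 2141 in the P15 library. All P6 labels were at hand, but only the first part of the P15 label list was, so the P15 Tip cells are a subset. The clusters were drawn by the study from these same counts, so a difference between Tip cells and other clusters describes the cluster and is not a test of it.

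A Tip cell extends filopodia toward VEGF released by the avascular retina, pulls the sprout forward and lays down new basement membrane. VEGF signalling raises the Notch ligand Dll4 in it, and Notch activation in the neighbouring stalk cells keeps those from becoming Tip cells. Secreted endocan (*Esm1*) and angiopoietin-2 (*Angpt2*), a ligand of the Tie2 receptor, are widely used Tip markers in the mouse retina.

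Both libraries came from retinas of wild-type C57BL/6 mice, taken at postnatal day 6 (P6), when the plexus is still spreading, or at postnatal day 15 (P15). Endothelial cells were obtained by flow sorting for the endothelial protein CD31 and against the leukocyte protein CD45, and were profiled on a 10x Genomics droplet system with 1 library per age. Transcripts were counted as unique molecular identifiers (UMIs), and levels are given as counts-per-million (CPM) of the summed UMIs of the cells concerned. The number of mice behind a library was not given in the sources used here, and age and library cannot be told apart. There is therefore no test in what follows. Ratios carry 95% conditional binomial intervals, CPM carry exact Poisson intervals and shares carry exact binomial intervals, all of which cover counting error only.

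Tip cells held a median of 5587 UMIs (range 1751 to 16114) and 2402 genes at P6, and 5853 UMIs (1624 to 12434) at P15. The median was 5326 UMIs in the other labelled P6 cells and 4150.5 in the other labelled P15 cells. Summed over Tip cells, the P6 values rest on 1119079 UMIs and the P15 values on 284188. The mitochondrial share of UMIs in the median Tip cell was 1.13% at P6 and 0.907% at P15. The libraries shared 7 barcodes, of which 0 were Tip cells.

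The Tip cluster held the highest levels of both markers, which describes the cluster since its name rests on these same counts, and most single Tip cells had no UMI of either one. *Esm1* stood at 189 CPM (164 to 216) in P6 Tip cells, from 211 UMIs in 41 of 170 cells. In the other P6 clusters *Esm1* ranged from 4.13 CPM in Cap-Venous and 7.03 in Venous cells, through 10.1 in Arterial, 10.6 in Primitive, 11.4 in Stalk and 19.1 in Proliferative cells, to 26.3 in Cap-Arterial and 32.5 (18.9 to 52.1) in Capillary cells. The Tip value was thus above every other cluster, with no overlap of intervals. Pooled over all other labelled P6 cells *Esm1* was at 13.1 CPM, a Tip ratio of 14.3 (11.4 to 18.2). An *Esm1* UMI was present in 24.1% of Tip cells (17.9 to 31.3) and in 4.46% of the others (3.44 to 5.68). After each cell was thinned to 3000 UMIs these shares were 19.9% and 3.60%. As a background level, 2 of the 40 Arterial cells (5.0%), which hold a median of 4400 UMIs, had an *Esm1* UMI. A few Tip cells carried much of the signal, because the 5 cells with the most *Esm1* held 45.0% of its Tip UMIs.

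At P15 *Esm1* was scarcer throughout, at 45.7 CPM (24.4 to 78.2) in Tip cells from 13 UMIs in 6 of 46 cells, and 4.85 CPM in the other labelled cells, a ratio of 9.44 (3.73 to 25). *Angpt2* was highest in the Tip cluster at both ages, where orders among P15 clusters leave out the 2 Venous cells. It stood at 103 CPM (84.8 to 123) in P6 Tip cells, from 43 cells (25.3%, 19.0 to 32.5), against 9.03 CPM in the others, a ratio of 11.4 (8.45 to 15.4). The next P6 clusters for *Angpt2* were Capillary at 17.2 and Stalk at 16.4 CPM, and Arterial cells had 0 *Angpt2* UMIs, which allows up to 15.2 CPM. At P15 *Angpt2* reached 130 CPM (91.7 to 179) in Tip cells, from 16 of 46 cells (34.8%, 21.4 to 50.2), against 11.9 in the others, a ratio of 11.0 (6.31 to 19.6).

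At P6 the markers were more selective together than apart. A UMI of *Esm1* or *Angpt2* was found in 56 of 170 Tip cells (32.9%, 25.9 to 40.6) and in 113 of 1390 others (8.13%). A UMI of both was found in 28 Tip cells (16.5%) and 11 others (0.791%), so Tip cells made up 71.8% of the 39 labelled cells positive for the pair. Of the 103 P6 cells with *Esm1*, 39.8% were Tip cells, and of the 105 with *Angpt2*, 41% were. At P15 a UMI of either marker was in 18 of 46 Tip cells (39.1%) and 21 of 392 others (5.36%). Tip cells made up 57.1% of the 7 labelled P15 cells positive for the pair, close to 54.5% of the 11 with *Esm1* and above 45.7% of the 35 with *Angpt2*, all on few cells.

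**Figure D1:**
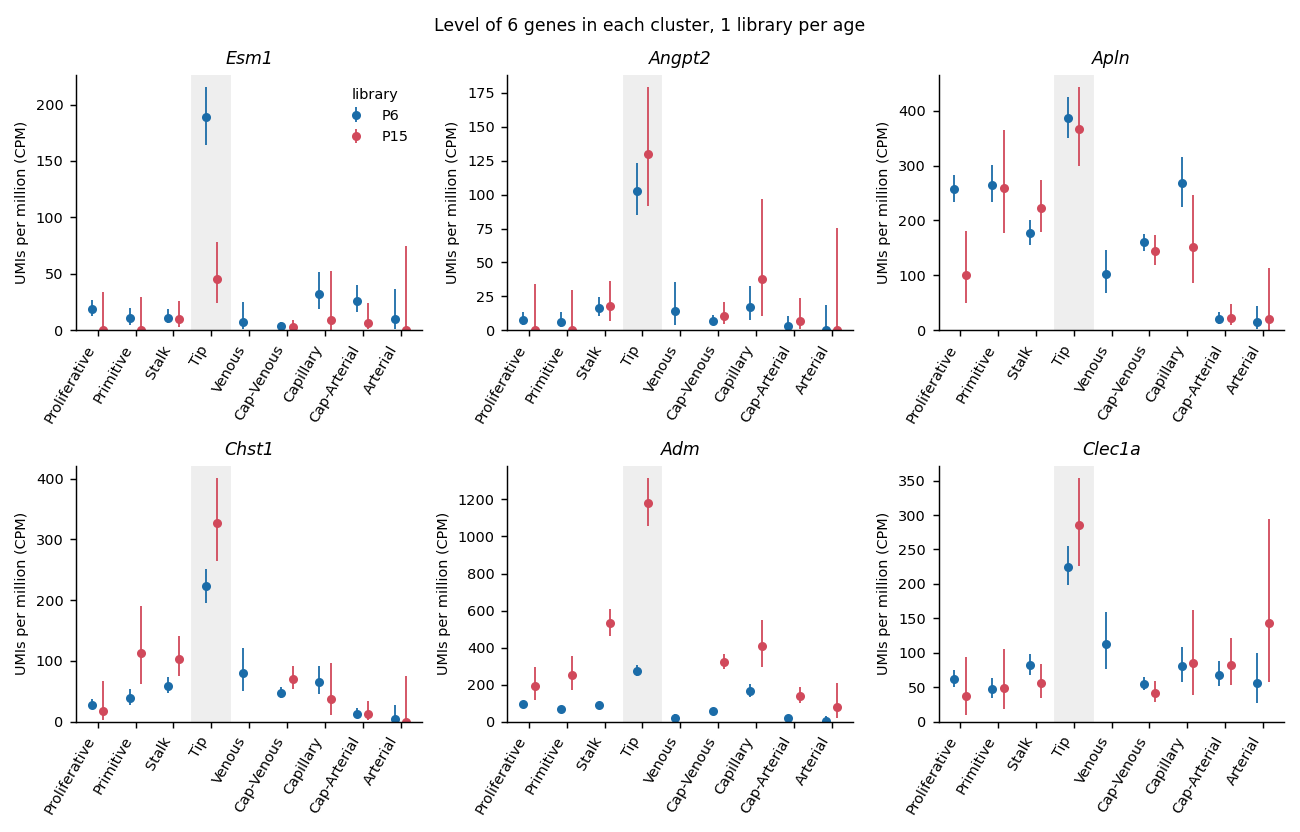
Level of 6 genes (y axis, CPM, with exact 95% Poisson intervals) in each labelled cluster (x axis), P6 in blue and P15 in red, with the Tip cluster shaded. *Esm1* in Tip cells stood at 189 CPM at P6 and 45.7 at P15, while *Adm* stood at 274 and 1182. The 2 Venous cells at P15 are not drawn.

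Promoter sequences from RefSeq (GRCm38.p6, 250 bases before to 50 after the start) are shown for 3 of the genes with the largest Tip ratios at P6. *Esm1* lies on chromosome 13 at 113209659 to 113218098 (plus strand). *Adm*, which encodes the vasodilator peptide adrenomedullin, and *Kcne3*, an accessory subunit of potassium channels, both lie on the plus strand of chromosome 7, at 110627661 to 110629820 and 100176502 to 100184869. Capitals mark the letters ACGTG or GCGTG, searched on both strands (CACGT and CACGC on the strand printed), which form the core of the element bound by hypoxia-inducible factors.
Esm1 (chr13:113209409-113209708, + strand): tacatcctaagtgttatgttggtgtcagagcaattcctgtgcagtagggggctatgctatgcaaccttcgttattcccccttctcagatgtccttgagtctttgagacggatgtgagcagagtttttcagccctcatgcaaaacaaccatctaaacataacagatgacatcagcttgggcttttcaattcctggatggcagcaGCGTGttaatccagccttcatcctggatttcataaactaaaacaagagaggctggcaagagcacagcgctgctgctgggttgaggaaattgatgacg
Adm (chr7:110627407-110627706, + strand): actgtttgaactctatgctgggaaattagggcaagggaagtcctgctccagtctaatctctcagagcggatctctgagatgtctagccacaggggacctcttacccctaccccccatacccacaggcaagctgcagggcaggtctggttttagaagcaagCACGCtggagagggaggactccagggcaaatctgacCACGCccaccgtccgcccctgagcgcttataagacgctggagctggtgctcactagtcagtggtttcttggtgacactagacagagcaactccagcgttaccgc
Kcne3, upstream promoter (chr7:100176420-100176719, + strand): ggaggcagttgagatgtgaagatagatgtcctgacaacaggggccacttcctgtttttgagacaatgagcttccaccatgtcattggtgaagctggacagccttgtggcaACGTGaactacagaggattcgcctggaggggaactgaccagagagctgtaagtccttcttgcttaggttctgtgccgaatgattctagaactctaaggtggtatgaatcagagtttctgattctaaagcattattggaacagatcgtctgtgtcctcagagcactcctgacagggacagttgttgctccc
Kcne3, downstream promoter (chr7:100178433-100178732, + strand): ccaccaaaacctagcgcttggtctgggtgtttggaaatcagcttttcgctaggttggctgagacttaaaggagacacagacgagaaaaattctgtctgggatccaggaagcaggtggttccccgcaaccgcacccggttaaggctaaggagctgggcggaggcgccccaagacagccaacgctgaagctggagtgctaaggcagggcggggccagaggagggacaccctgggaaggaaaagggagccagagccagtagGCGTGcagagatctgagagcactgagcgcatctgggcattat
*Esm1* held GCGTG at position -47 from the start. *Adm* held GCGTG on the minus strand at positions -90 and -54. The upstream *Kcne3* promoter held ACGTG at -140 and the downstream one GCGTG at 9. Among the 15 leading P6 genes, 10 had an entry, with 15 promoters in all, of which 9 held either motif. The 3 genes printed are among the 6 leading genes with a motif. The promoters of *Chst1*, *Epor*, *Ppm1j* and *Apod* held neither motif and are not printed. Of all 32851 promoters 43.8% held either motif (19.6% with ACGTG, 32.4% with GCGTG). A match describes the letters and is not evidence of a bound site. *Angpt2*, *Clec1a*, *Nos2* and *Slc16a6* were among the genes with no entry.

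Across genes, 533 of 8422 counted genes (6.33%) were at least 1.5-fold higher in P6 Tip cells than in all other labelled P6 cells, and 815 (9.68%) were at least 1.5-fold lower. A gene was counted when at least 10 UMIs would be expected in Tip cells if both groups shared its level. At P15, 371 of 4532 counted genes (8.19%) were higher and 585 (12.9%) lower. Counts of higher and lower members in the gene lists below are to be read beside these shares, which a short list can reach with a single gene. Close to the limit at P6, *Riok3* and *Chic2* had ratios of 1.503 and 1.501, and *Gm26632* and *Nploc4* of 1.499.

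*Chst1*, a sulfotransferase acting on keratan sulfate, stood at 223 against 42.2 CPM, a ratio of 5.27 (4.46 to 6.21), and was found in 103 of 170 Tip cells. Its ratio at P15 was 5.06 (3.82 to 6.69), at 327 against 64.6 CPM. *Adm* stood at 274 against 71.7 CPM at P6, a ratio of 3.83 (3.33 to 4.40), and at 1182 against 325 CPM at P15, 3.63 (3.17 to 4.16). An *Adm* UMI was found in 98 of 170 Tip cells at P6 and in 40 of 46 at P15. The level of *Adm* was thus far higher at P15 in Tip cells and in the rest, and its Tip ratio was close at the 2 ages. *Clec1a*, a C-type lectin receptor, stood at 225 against 64.8 CPM at P6, 3.48 (2.98 to 4.04), and at 285 against 56.6 CPM at P15, 5.04 (3.72 to 6.80). *Kcne3* stood at 150.1 against 37.3 CPM at P6, 4.02 (3.32 to 4.87), with Primitive cells next at 92.4 CPM, and rested on 11 Tip UMIs at P15.

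Some leading genes belonged less clearly to Tip cells. *Cxcr4*, the receptor of the chemokine Cxcl12, was at 100.1 CPM in P6 Tip cells against 29.0 in the others, 3.45 (2.74 to 4.33), but Capillary cells stood near it at 82.2 CPM. At P15 Capillary cells, at 75.7 CPM of *Cxcr4*, were above Tip cells at 59.8. *Apod*, a lipid-binding lipocalin, was at 487 against 155 CPM at P6, 3.14 (2.84 to 3.48), with Venous cells at 429, and at 975 against 314 CPM at P15, with Primitive cells at 928. Other leading P6 genes were *Epor*, the erythropoietin receptor (3.37), *Slc16a6* of the monocarboxylate transporter family (3.36), the inducible nitric oxide synthase *Nos2* (3.35), the phosphatase *Ppm1j* (3.29), the cyclic AMP phosphodiesterase *Pde4b* (3.21) and *Rasgrp2*, an activator of the GTPase Rap (3.19). Of the 15 leading P6 genes, 13 were at least 1.5-fold higher in Tip cells at P15 too, and the intervals of 12 lay above 1. The exceptions were *Nos2*, at 1.13 (0.340 to 2.94), and *Rasgrp2*, at 1.28 (0.813 to 1.94), while *Slc16a6*, at 1.63 (0.546 to 4.10), passed the fold with an interval that included 1. Over all counted P15 genes 8.19% were that much higher. Several of the 15, *Esm1* and *Angpt2* among them, had too few expected UMIs to be counted at P15. That share is therefore over a different set of genes. The study integrated P6 and P15 cells before clustering, so Tip cells of both ages were grouped together. Agreement between the ages is therefore not an independent check.

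The 10 leading P15 genes included *Dapk2*, *Tgfbi*, *Plaur*, *Chst1*, *Clec1a*, *Gng2*, *Cd82* and *Trf*. *Dapk2*, a kinase linked to cell death, stood at 151 against 19.4 CPM at P15, 7.80 (4.89 to 12.5), and at 29.5 against 4.81 CPM at P6. *Tgfbi*, a secreted adhesion protein, was at 144 against 18.9 CPM, 7.65 (4.75 to 12.4), at P15 and at 202 against 111 CPM, 1.83 (1.57 to 2.11), at P6. *Plaur*, the urokinase receptor, was at 130 against 23.2 CPM at P15, 5.62 (3.52 to 8.93), and at 105 against 36.7 at P6, 2.87 (2.30 to 3.56). The tetraspanin *Cd82* and transferrin (*Trf*) were abundant, at 563 and 574 CPM in P15 Tip cells, with ratios of 4.21 (3.43 to 5.16) and 3.93 (3.22 to 4.79). All 10 were at least 1.5-fold higher at P6, with intervals above 1. By the fold alone 6.33% of all counted P6 genes were, a set that leaves out the scarce *Dapk2*. The joint clustering of the ages limits this comparison too.

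**Figure D2:**
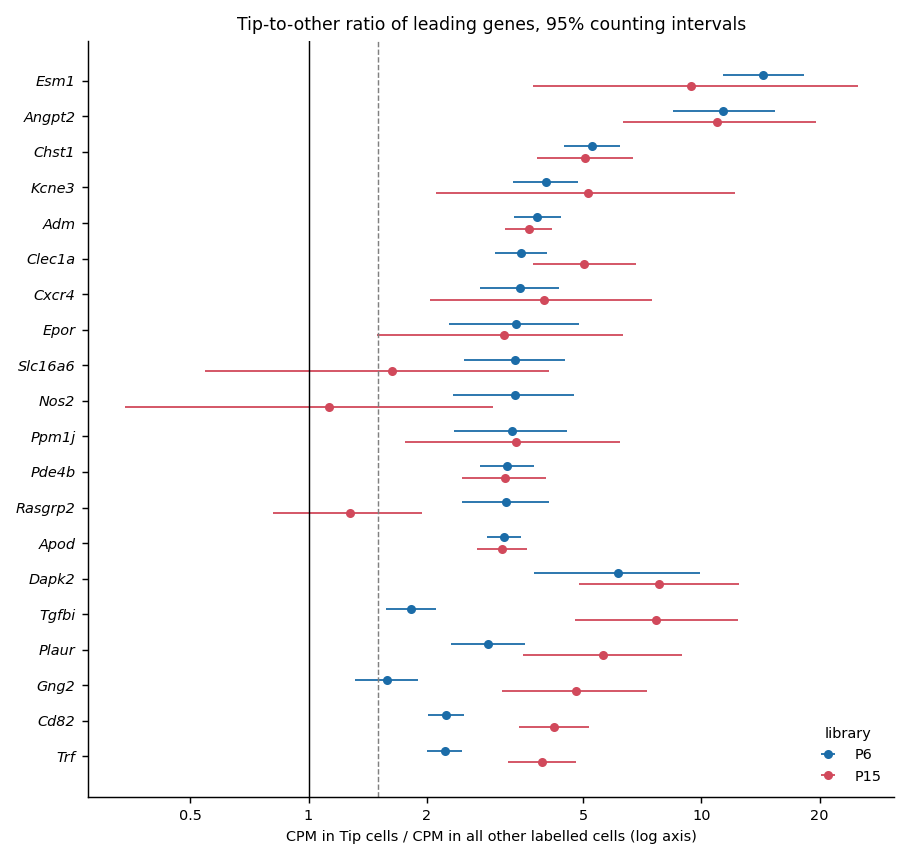
Ratio of the level in Tip cells to that in all other labelled cells of the same library (x axis, log scale) for leading genes of P6 and P15 named here, with 95% conditional binomial intervals, P6 in blue and P15 in red. The dashed line marks 1.5-fold. *Esm1* reached 14.3 at P6, and *Nos2* and *Rasgrp2* were close to 1 at P15.

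Of the 21 genes listed as secreted or surface proteins of Tip cells, which include both markers, 19 were counted at P6. Of these 17 were at least 1.5-fold higher and 0 lower, with a median log2 ratio of 1.12 against -0.01 over all counted genes. At P15, where both markers were too scarce to be counted, 9 of 14 were higher and 0 lower, with a median of 1.22. Summed over the list, Tip cells held 6873 CPM against 3435 at P6, a ratio of 2.0 (1.95 to 2.05), and 7140 against 3300 at P15, 2.16 (2.06 to 2.28). Capillary cells were next at 4936 CPM at P6 and 4190 at P15. *Trp53i11*, a p53-induced gene, was the most even member, at 575 against 185 CPM at P6 and 866 against 278 at P15, with a ratio of 3.11 at each age. *Apln*, which encodes the peptide apelin, was at 386 against 181 CPM at P6, 2.13 (1.91 to 2.37), and at 366 against 143 at P15, 2.56 (2.02 to 3.23). *Fscn1*, the actin-bundling protein of filopodia, was at 1012 against 554 CPM at P6, 1.82 (1.71 to 1.95), and at 1122 against 407 at P15, 2.76 (2.41 to 3.15). The surface adhesion protein *Mcam* was at 384 against 174 CPM at P6, 2.20, yet Capillary cells were higher at 436. *Igfbp3*, a binding protein of insulin-like growth factors, was at 1062 against 611 CPM at P6, 1.74, below Arterial cells at 1280, and at 208 against 183 CPM at P15, 1.13 (0.845 to 1.5). *Pdgfb*, the growth factor that recruits pericytes, had ratios of 1.78 (1.44 to 2.17) and 1.34 (0.849 to 2.03). *Inhbb* and *Ramp3* were not counted, and the guidance receptor *Unc5b*, at 1.11 (0.819 to 1.47), was 1 of the 2 counted P6 members short of the fold.

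Counted cell by cell, Tip cells expressed more of these 21 genes at the same depth. The list holds both markers, was chosen with earlier results of these data known, and the cells were clustered on the same counts. The difference therefore describes the cluster, and its cells are not replicates. After thinning to 3000 UMIs, the mean number of list genes with a UMI was 8.03 (SD 2.84, 156 cells, range 3 to 17) in P6 Tip cells and 8.05 (SD 2.46, 41 cells, range 5 to 15) in P15 Tip cells. In the other P6 clusters the mean ran from 4.72 in Arterial to 6.55 in Capillary cells, and at P15 from 3.13 in Arterial to 6.08 in Capillary cells. The per-cell distributions overlapped widely.

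**Figure D3:**
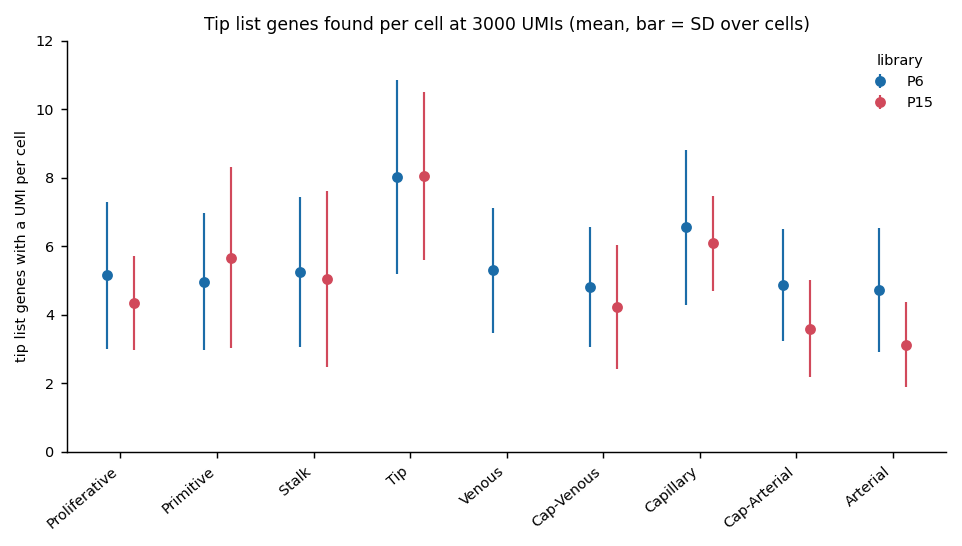
Number of the 21 listed Tip genes with at least 1 UMI per cell after thinning to 3000 UMIs (y axis, mean with SD over cells) by cluster (x axis), P6 in blue and P15 in red. Tip cells averaged 8.03 and 8.05 genes, and the spread of single cells overlapped that of the other clusters. The P15 Venous cluster is not drawn.

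The VEGF pathway differed in part of its receptors. *Kdr*, the main VEGF receptor VEGFR2, was at 385 CPM in P6 Tip cells and 366 in the others, 1.05 (0.949 to 1.16). *Flt1*, the decoy receptor, was likewise close, at 1.04 (0.962 to 1.13), and at P15 it was at 0.804 (0.695 to 0.927). *Flt4*, which encodes VEGFR3, was at 75.1 against 45.5 CPM at P6, 1.65 (1.29 to 2.09), and the co-receptor *Nrp1* at 299 against 188 CPM, 1.59 (1.41 to 1.79). The ligand *Vegfc* was at 4.47 against 19.4 CPM, 0.231 (0.0740 to 0.550), and *Vegfa* had 0 UMIs in P6 Tip cells. Of the pathway's 7 counted genes 3 were higher and 1 lower at P6, and 2 of 5 were higher at P15. Without Proliferative and Primitive cells among the others, 1 was higher and 1 lower of 6 at P6, with the median log2 ratio going from 0.07 to -0.11, and 1 of 5 was higher at P15.

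Among Notch genes the ligands moved apart. *Dll4* was at 212 against 119 CPM at P6, 1.77 (1.53 to 2.05), second to Arterial cells at 238. *Jag1*, the ligand that competes with Dll4, was at 123 against 201 CPM, 0.614 (0.513 to 0.731). At P15 *Dll4* was at 1.40 (0.986 to 1.96) and *Jag1* at 0.391. The receptor *Notch4* had a ratio of 1.55 (1.22 to 1.95) at P6 and 0.884 at P15. Of 11 counted Notch genes 2 were higher and 2 lower at P6, and of 9 at P15, 0 were higher and 2 lower.

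In the angiopoietin and Cxcl12 pathways ligand and receptor differed in direction. The angiopoietin receptor *Tek* (Tie2) was at 95.6 against 152 CPM at P6, 0.627 (0.510 to 0.765), and at 42.2 against 145 CPM at P15, 0.290 (0.148 to 0.516), opposite to its ligand *Angpt2*. *Cxcl12* was at 6.26 against 92.7 CPM at P6, 0.0675 (0.0270 to 0.140), and at 84.5 against 688 CPM at P15, opposite to its receptor *Cxcr4*. The apelin receptor *Aplnr* was not lower, at 1.21 at P6 and 1.64 (1.44 to 1.86) at P15. In counts, the angiopoietin and Tie list had 1 higher and 1 lower of 4 at P6. At P15 it had 1 lower of 3, where *Angpt2* was too scarce to be counted. The apelin list had 1 higher of 2 at P6 and 2 of 2 at P15. The Cxcl12 list had 1 higher and 1 lower of 2 at P6 and 1 lower of 1 at P15, where *Cxcr4* was not counted. Among axon guidance genes 2 of 9 were higher at P6, with a median log2 ratio of 0.29, and at P15 2 were higher and 2 lower of 6. *Sema6d*, a semaphorin, was at 1.53 (1.26 to 1.85) and *Plxnd1*, a semaphorin receptor, at 1.69.

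Part of the basement membrane genes were higher. At P6, 5 of 15 were at least 1.5-fold higher and 1 lower, with a median log2 ratio of 0.35, and at P15, 6 of 11 were higher and 1 lower, with a median of 0.59. Without Proliferative and Primitive cells among the others, 4 were higher and 2 lower at P6. Among laminin chains *Lamb1* was at 283 against 142 CPM at P6, 1.99 (1.75 to 2.26), *Lamc1* at 206 against 105, 1.96 (1.69 to 2.26), and *Lama4* at 340 against 207, 1.64. At P15 these ratios were 2.29, 2.18 and 1.78. Capillary cells exceeded Tip cells for *Lamb1* at P6, at 383 CPM. *Col15a1*, a collagen of the vessel basement membrane, was at 175 against 71.1 CPM, 2.46 (2.09 to 2.90), again with Capillary cells higher, at 249. The member in the other direction was *Lamb2*, at 0.446, and *Col18a1* was at 0.695 (0.614 to 0.785). Genes of collagen processing had 1 higher of 7 at P6 and 2 of 5 at P15. That P6 gene was *Loxl2*, a collagen crosslinking oxidase, at 37.5 against 12.2 CPM, 3.08 (2.10 to 4.44).

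Of 9 genes of matrix proteolysis 4 were higher and 0 lower at P6 (2 higher and 1 lower of 10 without Proliferative and Primitive cells), and at P15 3 of 6 were higher and 1 lower. *Mmp14*, the membrane-bound matrix metalloproteinase, was at 206 against 131 CPM at P6, 1.57 (1.36 to 1.81), and at 1.56 at P15. Among integrins 2 of 6 were higher at P6 and 0 of 4 at P15, where 1 was lower. *Itga2* (1.88, 1.05 to 3.18) and *Itgav* (1.63, 1.01 to 2.52) were the P6 members, and the more abundant *Itgb1*, the common beta chain, was at 721 against 515 CPM, 1.40 (1.30 to 1.51). Genes of actin and filopodia had 4 higher and 1 lower of 23 at P6, and 5 higher and 2 lower of 22 at P15. *Cdc42ep3*, an effector of Cdc42, was at 1.97 (1.63 to 2.37), and *Myo10*, the motor of filopodial tips, at 226 against 146 CPM, 1.55 (1.35 to 1.78). *Actb*, cytoplasmic actin, was at 7130 against 12292 CPM, 0.580, but the pooled value includes Stalk cells at 40056 CPM. Venous cells came next at 10779 CPM, and Tip cells ranked 5 of 9 clusters, so the ratio is not a general deficit of Tip cells. Set against P6 cells without the Proliferative and Primitive clusters, *Nrp1* (1.40), *Notch4* (1.39), *Sema6d* (1.36), *Lama4* (1.49), *Mmp14* (1.48), *Itgav* (1.40) and *Myo10* (1.37) no longer passed the fold, in the same direction.

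Glycolysis genes stayed near the median as a list, with 3 higher and 1 lower of 15 at P6 and 1 higher and 1 lower of 12 at P15. The members that stood out were regulatory. *Pfkp*, a phosphofructokinase chain, was at 140 against 75.3 CPM at P6, 1.86 (1.55 to 2.22), and at 215 against 84.6 at P15, 2.54 (1.86 to 3.43). *Pfkfb3*, which makes the activator of phosphofructokinase, was at 25.9 against 12.1 CPM at P6, 2.14 (1.37 to 3.26). The glucose transporter *Slc2a1* ran the other way, at 760 against 1006 CPM at P6, 0.756 (0.704 to 0.811), and 1105 against 1954 at P15, 0.566 (0.502 to 0.635). Of hypoxia-responsive genes 2 of 13 were higher and 1 lower at P6, and 1 of 7 was higher and 2 lower at P15. *Ankrd37* was at 1.74 (1.41 to 2.14) at P6, and *Ddit4*, an inhibitor of mTOR signalling, at 0.613.

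Transcripts of dividing cells were fewer in Tip cells than in all other cells pooled, which include the Proliferative and Primitive clusters. The paper named the Proliferative cluster by *Mki67* and *Ccne1/2*. Leaving it out therefore describes the comparison and is not a test. All 21 mitosis genes were at least 1.5-fold lower at P6, with a median log2 ratio of -1.86 and a summed level of 438 against 1435 CPM, and 14 of 19 DNA replication genes were lower and 0 higher, with a median of -0.79. *Top2a*, which untangles DNA for mitosis, was at 51.8 against 165 CPM, 0.313 (0.237 to 0.407), and had a UMI in 36 of 170 Tip cells. The Proliferative cluster held 561 CPM of *Top2a* and the Primitive cluster 122. Without these clusters, against the remaining 1037 P6 cells, 0 of 14 counted mitosis genes were lower and 1 was higher, with a median log2 ratio of -0.05 and summed levels of 438 against 452 CPM. DNA replication genes then had 1 lower of 19, and *Top2a* a ratio of 0.862. Against P6 Stalk cells alone the summed mitosis level was still lower, at 0.702 (0.627 to 0.785). At P15 Tip cells had 0 *Top2a* UMIs, which allows up to 10.6 CPM, no mitosis gene was counted, and 1 of 2 replication genes was higher. The 27 mitosis UMIs of P15 Tip cells summed to 95.01 CPM against 271 in the others, 0.351 (0.229 to 0.516), but without Proliferative and Primitive cells the others were at 39.4 CPM, a ratio of 2.41 (1.48 to 3.83). Of 9 regulators of G1 at P6, 1 was higher and 5 lower. The higher gene was *Cdkn1a*, the cell cycle inhibitor p21, at 294 against 144 CPM, 2.04 (1.80 to 2.31), close to Venous cells at 299. The inhibitors *Cdkn1b* (p27) and *Cdkn1c* (p57) were lower, at 21.4 against 49.9 CPM, 0.430, and 9.83 against 38.6 CPM, 0.255. At P15 *Cdkn1a* was at 809 against 495 CPM, 1.63, and of 7 regulators 3 were higher and 2 lower.

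Genes of the blood-retina barrier were lower in part, several transporters among them. At P6, 6 of 16 were at least 1.5-fold lower and 0 higher, with a median log2 ratio of -0.38, and at P15, 9 of 16 were lower and 0 higher, with a median of -0.72. Without Proliferative and Primitive cells among the others, 9 were lower at P6. The summed level was 13608 against 14440 CPM at P6 and 20666 against 26865 at P15. *Slc16a1*, the monocarboxylate transporter MCT1, was at 45.6 against 82.4 CPM at P6 and at 243 against 1154 at P15, 0.210 (0.163 to 0.267). *Slc38a5*, a glutamine transporter, was at 436 against 748 CPM, 0.583, and the transferrin receptor *Tfrc* at 62.6 against 127 CPM, 0.492. *Mfsd2a*, a lipid transporter that restrains transcytosis, was at 366 against 496 CPM, 0.739 (0.666 to 0.818). The tight junction gene *Cldn5* was not lower, at 5888 against 5312 CPM, 1.11, and 0.987 at P15. Targets and receptors of Wnt and norrin signalling, which maintains the barrier, had 0 higher and 0 lower of 9 at P6 and 2 lower of 7 at P15. Without Proliferative and Primitive cells 3 of these 9 were lower at P6, with a median log2 ratio of -0.21. Caveolar and fenestral genes had 1 lower of 6 at P6 and 2 of 5 at P15.

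Several genes that respond to blood flow, in either direction, were lower in Tip cells. *Klf2*, a flow-responsive transcription factor, was at 290 against 585 CPM at P6, 0.496 (0.442 to 0.555), and 1035 against 2006 at P15, 0.516. *Klf4* was at 0.296 and 0.314, and *Edn1*, which encodes endothelin-1, at 0.493 and 0.546. The flow list had 1 higher and 3 lower of 8 at P6, and 4 lower of 7 at P15, with a median log2 ratio of -0.74. The BMP targets *Id1* (237 against 454 CPM, 0.522) and *Id2* (34.9 against 108 CPM, 0.323) were lower at P6, while the receptor-regulated transducer *Smad1* was at 189 against 90.5 CPM, 2.08 (1.78 to 2.43). BMP genes had 1 higher and 2 lower of 6 at each age. The ligand *Tgfb1* was at 350 against 209 CPM, 1.68 (1.5 to 1.87), in a TGF-beta list with 1 higher and 1 lower of 9 at P6, and 1 higher and 2 lower of 6 at P15.

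Arterial and venous identity genes had members on both sides. Over all counted genes 6.33% were higher and 9.68% lower at P6, and 8.19% and 12.9% at P15. Arterial genes had 2 higher and 4 lower of 14 at P6 and 1 higher and 6 lower of 11 at P15. *Gja4*, the arterial connexin 37, was at 163 against 284 CPM at P6, 0.573, and at 0.135 at P15. Venous genes had 1 higher and 3 lower of 13 at P6 and 2 higher and 3 lower of 11 at P15. Their median log2 ratio at P6 was -0.25, although their summed level was higher in Tip cells, at 18784 against 17629 CPM. Most of that sum was the list member *Tmsb10*, so it says little about the other venous genes. *Tmsb10* stood at 15720 CPM in P6 Tip cells with an *Esm1* UMI, 15645 in those without and 14157 in the others. *Nr2f2*, the transcription factor of venous fate, was at 0.636. Junctional and pan-endothelial genes had 1 higher and 0 lower at each age, of 10 and of 9, with *Pecam1*, which encodes the sorted protein CD31, at 1.43 and 1.41. Immediate early genes had 0 higher and 0 lower of 10 at P6 and 2 lower of 9 at P15.

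**Figure D4:**
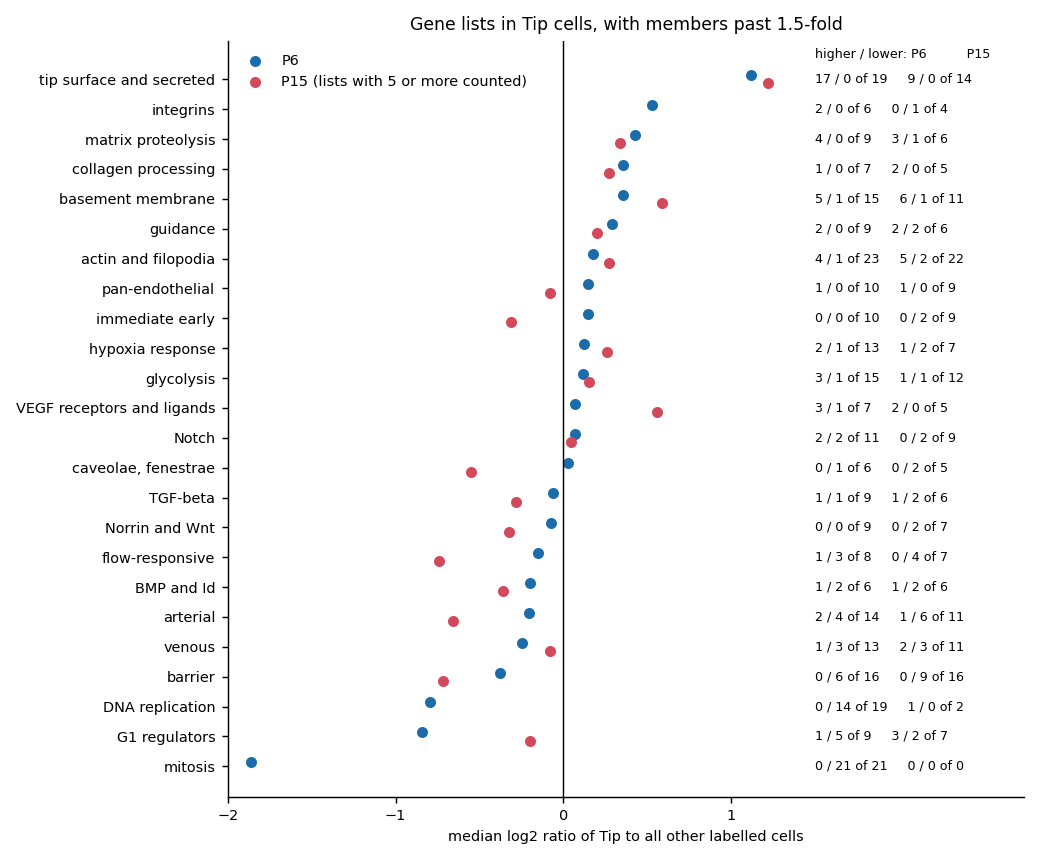
Median log2 ratio of Tip to all other labelled cells (x axis) for each gene list (y axis), P6 in blue and P15 in red, with the numbers of genes at least 1.5-fold higher and lower at the right. P15 points are drawn only for lists with at least 5 counted genes. The Tip list lies at 1.12 and 1.22, the mitosis list at -1.86 at P6, where it includes the Proliferative and Primitive cells among the others.

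Of the 10 genes lowest in P6 Tip cells relative to all others, 8 were highest in Arterial cells. *Fbln2*, a matrix protein, and *Tmem100*, a transmembrane protein of arterial endothelium, had 0 UMIs in Tip cells against 15.1 and 15.7 CPM in the others, which makes them at least 5.65-fold and 5.86-fold lower, with the floor set at 3 UMIs over the Tip cells. Arterial cells held 339 CPM of *Fbln2* and 273 of *Tmem100*. *Stmn2*, a microtubule-binding protein, was at 0.894 against 51.4 CPM, and *Htra1*, a secreted protease, at 4.47 against 74.3 CPM, 0.0602 (0.0195 to 0.141), and Arterial cells were highest for each, at 1179 and 531 CPM. *Ltbp4* and *Serpinf1*, secreted matrix and anti-angiogenic proteins, were also highest in Arterial cells. *Gm45828* and *Zfp574* were at 0 UMIs as well, *Depdc1a* was highest in Proliferative cells and *Dqx1* in Venous cells. At P15 the urea cycle enzyme *Ass1*, *Mal* and the lipase *Mgll* had 0 UMIs in Tip cells against 44.2, 72.7 and 58.2 CPM, at least 4.18-fold, 6.89-fold and 5.51-fold lower.

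Stalk cells trail Tip cells in a sprout, and 230 P6 and 85 P15 cells carried that label, with median depths of 5449.5 and 3875 UMIs. At P6, 946 of 8288 counted genes (11.4%) were at least 1.5-fold higher in Tip than in Stalk cells and 673 (8.12%) lower, and at P15 572 of 4536 (12.6%) were higher and 611 (13.5%) lower. With TMM scaling the P6 split became 758 higher and 842 lower and the P15 split 451 higher and 740 lower. The Tip list had 18 higher and 0 lower of 19 at P6, with a median log2 ratio of 1.11 against 0.07 over all counted genes. At P15 it had 12 higher and 0 lower of 16, with a median of 0.91.

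Stalk cells also differed from Tip cells in Notch and guidance genes. *Jag1* was at 123 CPM in P6 Tip and 434 in Stalk cells, 0.284 (0.234 to 0.342), and at 0.20 (0.113 to 0.335) at P15. *Hey1*, a Notch target, was at 42.0 against 10.7 CPM at P6, 3.93 (2.16 to 7.57). At P15 *Hey1* was at 0.532, but *Jag1* was the only counted Notch gene with an interval below 1 there. *Unc5b* was 2.16 (1.37 to 3.45) times its Stalk level and *Efnb2*, the arterial ephrin ligand, 2.37 times. Guidance genes had 5 higher of 9 and 0 lower at P6, basement membrane genes 6 of 15 and 0 lower, arterial genes 6 higher and 1 lower of 13, and integrins 3 of 6 and 0 lower. At P15 arterial genes had 0 higher and 4 lower of 10, with a median log2 ratio of -0.36 after 0.45 at P6, integrins 0 higher and 1 lower of 4, and basement membrane genes 6 higher and 0 lower of 11. *Gja4* was 2.0 times its P6 Stalk level, the opposite direction from its ratio to all other cells. Mitosis genes had 7 lower of 15 and 0 higher against Stalk cells, and DNA replication genes 6 lower of 19 and 0 higher, all at P6. The summed mitosis level at P15 was instead 2.50 (1.29 to 5.06) times the Stalk level, on 27 and 15 UMIs. *Cdkn1b* was at 21.4 against 134 CPM, 0.160 (0.100 to 0.246).

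The largest P6 ratios to Stalk were those of *Esm1* at 16.5 (9.95 to 29.5) and *Angpt2* at 6.27 (3.98 to 10.3), followed by *Ppm1j* (4.52), *Cxcr4* (4.13), *Chst1* and the NF-kappaB subunit *Nfkb2* (both 3.76), *Tnfrsf11b*, which encodes osteoprotegerin (3.67), *Mogat2* (3.45), *Cd276* (3.42) and the thrombin receptor *F2r* (3.33). All 10 were highest in Tip cells among the 9 P6 clusters. The lowest included *Abhd2*, a lipid hydrolase, at 0.15, with 1661 CPM in Stalk cells and 585 in Capillary cells, the next cluster, and the zinc transporter *Slc39a1* at 0.14, with 671 CPM in Stalk cells. At P15 these stood at 0.15 and 0.16. *Actb* was at 7130 CPM in P6 Tip cells and 40056 in Stalk cells, 0.178 (0.174 to 0.182), and at 7850 and 27625 CPM at P15. The other genes among the 10 lowest at P6 were *Prr15*, *Htra1*, *Retsat*, *Ccdc85c*, *Npr3*, *Rbm45*, *Fn3krp* and *Itpripl1*. By Pearson r of the overall profile Tip cells were nearest to Cap-Venous cells (0.967 over 3198 genes at P6, 0.927 over 3485 genes at P15). Stalk cells came next (0.958 and 0.915), and Arterial cells were farthest (0.805 and 0.686), with the 2 P15 Venous cells left out. These r values are across genes within 1 library, and genes are not independent replicates. By the median absolute log2 difference Cap-Venous (0.168) and Stalk cells (0.179) were again nearest at P6. By that measure Primitive cells (0.420) lay farther than Arterial cells (0.362). Summed depth differed, with 2661462 UMIs in P6 Cap-Venous, 1404252 in Stalk and 197598 in Arterial cells. How far depth sets the order of r was not tested.

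Tip cells were not uniform, and those with an *Esm1* UMI differed from the rest. At P6 the 41 Tip cells with *Esm1* had a median of 5991 UMIs and the 129 without had 5485. Of 4477 counted genes other than *Esm1* 347 (7.75%) were at least 1.5-fold higher in cells with *Esm1* and 516 (11.5%) lower. *Angpt2* was at 266 CPM with and 40.7 without *Esm1*, 6.52 (4.30 to 10.1), in 28 of 41 and 15 of 129 cells, and at 9.03 CPM in all other labelled cells. *Kcne3* was at 301.2, 92.6 and 37.3 CPM in these 3 sets of cells, *Adm* at 483, 195 and 71.7, and *Apln* at 612, 300 and 181, so Tip cells without *Esm1* lay between. *Igfbp3* was at 2215 CPM with and 622 without, 3.56 (3.17 to 4.0), and 622 is near the 611 CPM of all other cells. The protease *Prss23* had the largest ratio, at 172 against 16 CPM, 10.7 (5.75 to 21.4). The calcium-binding *S100a6* followed at 8.16, then the actin regulator *Coro1a* at 5.25, tubulin *Tuba1c* at 5.09, *Hcls1* at 4.50 and galectin-1 (*Lgals1*) at 4.09.

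*Kdr* (1.01), *Fscn1* (1.04), *Flt4* (1.05) and *Dll4* (1.15, 0.856 to 1.52) had ratios near 1. The Tip list without *Esm1* had 11 higher and 0 lower of 17, with a median log2 ratio of 0.67 against -0.01 over all counted genes. Barrier genes had 10 lower and 0 higher of 16, with a median of -0.82 and summed levels of 9946 against 15003 CPM. *Mfsd2a* was at 178 CPM with, 438 without *Esm1* and 496 in all other cells, 0.407 (0.300 to 0.541), *Slc38a5* at 240, 511 and 748, and *Spock2*, a barrier-associated proteoglycan, at 175, 459 and 630. Basement membrane genes had 4 higher of 12 and 0 lower, venous genes 5 lower of 11 and 0 higher, and mitosis genes 3 higher of 5. *Tfrc* was at 22.7 against 77.7 CPM, 0.292 (0.113 to 0.637). Part of the counts rested on few cells, since the 93 *Gja4* UMIs of the cells with *Esm1* came from 8 of them, and its ratio of 2.74 was 1.24 in cells passing the quality filter.

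**Figure D5:**
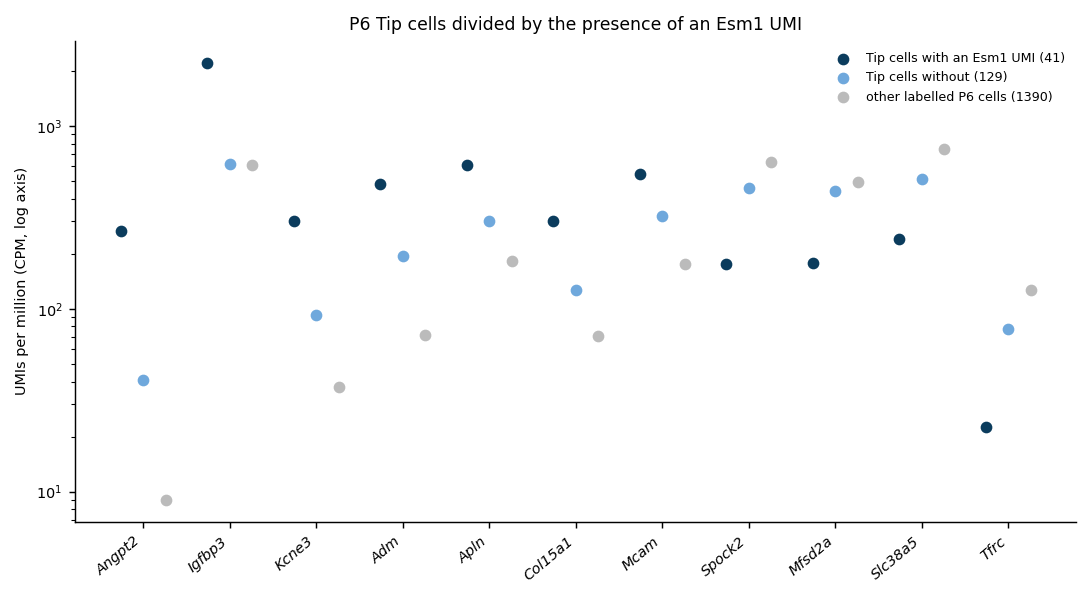
Level of 11 genes (CPM, log axis) in 41 P6 Tip cells with an *Esm1* UMI, 129 Tip cells without and 1390 other labelled P6 cells. *Angpt2*, *Kcne3*, *Adm* and *Apln* step down across the 3 sets, and *Mfsd2a* steps up from 178 to 438 to 496 CPM.

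Leading genes went together in some cells. Over the 170 P6 Tip cells the log-normalised counts of *Esm1* and *Angpt2* correlated at Pearson r 0.632, *Apln* and *Kcne3* at 0.462, *Angpt2* and *Apln* at 0.439, and *Esm1* and *Adm* at 0.438. *Esm1* was less tied to *Trp53i11* (0.162), *Cxcr4* (0.155) and *Chst1* (0.132). Over the 46 P15 Tip cells *Esm1* and *Angpt2* correlated at 0.273, *Angpt2* and *Apln* at 0.442, and *Adm* and *Chst1* at 0.569. Other pairs did not go together at P15, with *Apln* and *Kcne3* at -0.059, *Esm1* and *Adm* at -0.018 and *Esm1* and *Apln* at -0.134, where *Esm1* was found in 6 cells. Cells of 1 library are not replicates, and depth is shared by all genes of a cell.

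Tip cells of the 2 ages were set side by side, with the ratio in all other labelled cells given next to the Tip ratios of single genes. Of 4280 counted genes 702 (16.4%) were at least 1.5-fold higher in P15 than in P6 Tip cells and 589 (13.8%) lower. TMM scaling moved every log2 ratio by -0.19 and gave 446 higher and 1016 lower. The list median named below, 1.83 for immediate early genes, keeps its sign with that shift. Smaller positive list medians do not, among them those of basement membrane (0.067) and Notch genes (0.123). The median log2 ratio was 0.06 in Tip cells over 4276 genes and 0.10 in all other labelled cells over 9816 genes. Immediate early genes had 7 higher and 0 lower of 7, with a median log2 ratio of 1.83, and *Fos* and *Jun* were 3.87 and 3.66 times their P6 level in Tip cells and 4.87 and 4.16 times in the others. Hypoxia-responsive genes had 4 higher and 0 lower of 8, with a summed level of 2949 against 1341 CPM, and 2031 against 1169 in the others. *Adm* was 4.31 (3.68 to 5.05) times its P6 level in Tip cells and 4.54 times in the others, and *Ankrd37* 4.55 and 6.62 times. Flow genes had 4 higher and 0 lower of 5, with *Klf2* at 3.56 and 3.43 times.

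Barrier genes had 7 higher and 0 lower of 16 and a summed level of 20666 CPM at P15 against 13608 at P6, with 26865 against 14440 in the others. *Slc16a1* went from 45.6 to 243 CPM in Tip cells, 5.33 (3.66 to 7.81), and was 14 times higher in the other cells. *Abcb1a*, the efflux pump P-glycoprotein, was 1.21 times its P6 level in Tip cells and 2.36 times in the others, and *Tfrc* 0.956 and 1.55 times. The largest ratio was that of *Slco1a4*, an organic anion transporter, which went from 7.15 to 222 CPM, 31.0 (14.8 to 75), and 29.7 times in the others. *Depp1* followed at 18.9 and 13.4 times, then the glutathione transferase *Gsta4* at 10.0 and 11.7 and *Pmaip1*, which encodes Noxa, at 7.88 and 11.1. Further down came *Ly6a* (6.32 and 5.83), the small heat shock protein *Hspb1* (6.17 and 4.48), the pseudogene *Rpl19-ps11* (5.63 and 5.43), the nuclear RNA *Neat1* (5.19 and 6.23) and *Dapk2* (5.13 and 4.03).

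The Tip list as a sum was close at the 2 ages, at 7140 against 6873 CPM, with 2 members higher and 6 lower of 18. *Angpt2* (1.27, 0.850 to 1.85) and *Apln* (0.948, 0.758 to 1.18) had intervals that included 1, and were at 1.31 and 0.788 in the others. *Chst1* and *Trp53i11* were at 1.47 and 1.51, and at 1.53 and 1.503 in the others. *Esm1* went from 189 to 45.7 CPM, 0.243 (0.127 to 0.424), and was at 0.369 in the other cells. *Kcne3* was at 0.258 and *Igfbp3*, from 1062 to 208 CPM, at 0.196, against 0.202 and 0.300 in the others. Mitosis genes had 3 lower of 3 and DNA replication genes 4 lower and 0 higher of 6. *Pclaf*, *Top2a*, *Tuba1c* and *Gm16200* went to 0 UMIs from 71.5, 51.8, 44.7 and 79.5 CPM, at least 6.77-fold, 4.91-fold, 4.23-fold and 7.53-fold lower. In the others the first 3 were at 0.135, 0.143 and 0.136, and *Gm16200* also went to 0 UMIs, from 98.4 CPM. *Plvap*, the diaphragm protein of fenestrae, went from 207 to 14.1 CPM, 0.0679 (0.0183 to 0.176), and was at 0.0563 in the others. *S100a6* and *Lgals1* were at 0.106 and 0.107, against 0.139 and 0.340 in the others.

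Markers of other cell types had summed levels in Tip cells that were close to or below those in the other labelled cells. The summed level of 10 pericyte markers was 8.94 CPM in P6 Tip cells and 9.03 in the others, with *Pdgfrb*, *Kcnj8*, *Cspg4*, *Des* and *Acta2* at 0 UMIs, and at P15 it was 179 and 213 CPM, of which *Rgs5* gave 148 in Tip cells. The paper filtered out contaminating cells by *Hbb-bt*, *Neurod1* and *Cd63*, so low levels of such markers were partly selected in all labelled cells. *Cd63* was at 0 UMIs in every labelled cell and cannot separate them. Neuronal markers summed to 18.8 against 17.6 CPM at P6 and 63.3 against 116 at P15, microglial and leukocyte markers to 3.57 against 3.05 and 7.04 against 12.9, and erythroid markers to 25.9 against 21.8 and 151 against 180. Glial markers summed to 164 against 369 CPM at P6 and 461 against 1268 at P15, nearly all of it *Glul*, glutamine synthetase, with the glial genes *Gfap* and *Slc1a3* at 0 UMIs in Tip cells. The part of these transcripts in the results was not tested.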

How the data were processed

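Retinal endothelial cells of P6 and P15 mice were profiled as 1 droplet library each. The authors deposited raw UMI counts per gene and barcode for each library, and the submitters' processing notes name Seurat 3.0 and the mm10 build, while the aligner is not given in the sources used here. Cluster names were taken from the published cluster table, joined by barcode, where the suffix gives the age. All labelled barcodes were found in the count tables. The P15 part of that table was shortened and holds 438 labels. Primordial cells of the table are called Primitive and Primordial-Proliferative cells Proliferative.

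Of 22734 gene identifiers at P6 and 21785 at P15, 22695 and 21745 had a symbol, and those without held 0.0145% and 0.0146% of UMIs. Counts were summed over the cells of a group and divided by the group's total. A gene was counted with at least 10 UMIs expected in the Tip cells (in the smaller group between ages, over 19845 genes in both libraries), and called at 1.5-fold. With 1 library per age no test was made, so edgeR 4.0.16 (R 4.3.3) served only for TMM factors. The total of UMIs was 13958124 at P6 and 11589641 at P15. The ratio code, tested on simulated data, used scipy 1.17.1 and numpy 2.4.6 under Python 3.11.15, and tables and plots were made with pandas 2.3.3 and matplotlib 3.10.9.

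The Tip cells and all 32 gene lists (355 genes) were chosen with earlier results of these data known. Named genes were members of the lists, the 15 largest and 10 smallest Tip ratios at P6, the 10 and 5 at P15, and the 10 and 10 for Stalk at P6 and for age, where the largest needed a UMI in at least 20% of Tip cells. The split by *Esm1* was added after the data were seen, with genes of the same kind named, and genes next to the fold limit are named for their place. Some genes that these rules name are not reported here. Alternatives thinned cells to 3000 UMIs, weighted cells equally, kept labelled cells with 200 to 3500 genes and at most 5% mitochondrial UMIs, and changed the total, the filter, the fold and the cells compared. No doublet caller was run. UMIs of both *Xist* and Y-linked genes were found in 4 Tip cells at P6 and 0 at P15, and leaving out such cells was another alternative. Profile likeness was computed on log2 of CPM plus 10 over genes of at least 50 CPM in a cluster.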

Additional observations from a re-analysis of the deposited data

Results flagged for a closer look

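*Junb*, an immediate early transcription factor, lay on opposite sides of equality at the 2 ages. Its Tip ratio was 1.39 (1.22 to 1.57) at P6 and 0.807 (0.685 to 0.945) at P15, and the difference between these ratios was not tested. *Esm1* was also found in barcodes with no cluster label, which enter no comparison above. In the P6 library it stood at 92.5 CPM (399 UMIs in 75 of 424 unlabelled barcodes), against 13.1 CPM in labelled cells other than Tip. The Tip cells of that library held 211 *Esm1* UMIs. Of the unlabelled P6 barcodes 220 had a *Cd63* UMI (287 *Esm1* UMIs, 142 CPM), and 103 others had more than 3500 genes (94 *Esm1* UMIs). The paper filtered out cells by *Cd63* and by high gene numbers. Only 25 unlabelled P6 barcodes passed limits of this kind. Whether the unlabelled barcodes with *Esm1* are Tip cells was not tested. In the P15 library *Esm1* stood at 11.9 CPM (112 UMIs in 59 of 1703 unlabelled barcodes), against 4.85 CPM in labelled cells other than Tip, and these barcodes include cells whose labels fell in the missing part of the P15 label list.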

How the results depend on the processing

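With 1 library per age, counting error is the only error that can be given, and depth limits the P15 values most, since 46 Tip cells held 284188 UMIs. No paired analysis was possible because each age has 1 library. Of 4068 ratios of named genes recomputed under other settings, 3832 lay inside the counting interval of the reported value, and 1 ratio past the fold turned direction, that of *Loxl2* with against without *Esm1*, at 0.701 after thinning. The numbers of genes past the fold followed the filters. Without a filter on expected UMIs, higher and lower genes numbered 3524 and 7406 for Tip against others at P6, 3163 and 6976 at P15, 4029 and 3905 against Stalk at P6, 3358 and 4025 at P15, 4045 and 5458 between ages, and 3081 and 5450 for the split by *Esm1*. With at least 30 expected UMIs they were 235 and 313, 118 and 160, 370 and 258, 149 and 159, 218 and 226, and 102 and 107. At 2-fold they were 123 and 316, 90 and 207, 271 and 246, 170 and 232, 211 and 216, and 71 and 154. With an interval that excludes 1, 535 genes were lower at P6 and 300 at P15, 521 higher and 344 lower against Stalk at P6, 288 and 284 at P15, 371 lower between ages, and 203 and 200 in the split. Thinning gave 214 and 329 at P15, 315 and 307 against Stalk at P15, 340 and 368 between ages, and 215 and 246 in the split, and TMM gave 446 and 1016 between ages. The share of P6 Tip cells with *Angpt2* was 17.9% after thinning. Leaving out cells with *Xist* and Y-linked UMIs, cells outside the quality filter, or mitochondrial and ribosomal genes, and weighting cells equally, moved no count past 1.5 times.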

Other observations

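Some genes of the lists were too scarce to be counted. *Plau*, the urokinase plasminogen activator that binds the Plaur receptor, gave 6 UMIs in P6 Tip cells and 1 in all other labelled P6 cells, a ratio of 45.7 (5.54 to 2102) that rests on that 1 UMI. *Ackr3*, the scavenging receptor of Cxcl12, had a ratio of 3.46 (1.93 to 6.00) at P6, but was highest in Arterial cells, at 65.8 CPM against 17.9 in Tip cells. *Pgf*, which encodes placental growth factor, was at 6.26 CPM in P6 Tip cells, from 3 cells, and at 5.06 in Arterial cells.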
